A study of Mus musculus with 12 samples.

Results

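The Hox genes of mouse embryonic fibroblasts (MEFs) were followed through exposure to either of 2 chemical combinations. A gene was a member if its symbol in the platform annotation was Hoxa, Hoxb, Hoxc or Hoxd followed by a number and if at least 1 probe set carried that symbol alone. This gave 31 genes of the 12393 with a probe set of their own, read by 37 probe sets: 9 Hoxa, 9 Hoxb, 6 Hoxc and 7 Hoxd genes. Membership used no measured value.

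Hox genes encode homeodomain transcription factors and lie in 4 chromosomal clusters. Within a cluster they are numbered by paralogue, from those used at the front of the embryo to those used at its rear and in the distal limbs, and genes of the same number in different clusters are copies of one ancestral gene. Fibroblasts keep part of this code in culture, and the set of Hox genes that is on differs with the part of the body the cells came from. Polycomb complexes keep silent Hox genes off, Trithorax complexes keep active ones on, retinoic acid is a classical activator of the low-numbered genes, and Pbx and Meis proteins bind DNA together with Hox proteins.

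Total RNA was hybridised to Affymetrix Mouse Genome 430A 2.0 arrays in 6 groups of 2 arrays, at days 0, 5 and 10 of the combination known by the code name 6TCF and at the same days of the combination SGCF. MEFs grown from embryos in a medium with 10% fetal bovine serum were seeded at 20000 cells per dish and moved on the following day to a medium with 15% serum and 40 ng/ml basic fibroblast growth factor. What each combination contains, the mouse strain, the embryonic age and whether the day 0 cells had met the chemicals are not stated in the labels. No group is a culture without chemicals at day 5 or 10, so a change from day 0 also holds time in culture and the change of medium. The labels do not say whether the 2 arrays of a group came from separate embryos or cultures, so every p-value measures the spread between arrays, which may be technical.

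Levels are log2(intensity + 16) after quantile normalization. Changes are differences on that scale, on which changes of dim genes come out too small, and are given with their standard error (SE). The floor is the 25th percentile of all values, 5.25. A call is an adjusted p below 0.05 from limma, with Benjamini-Hochberg adjustment over 10674 genes. Array medians before normalization were 102 to 142 for 6TCF and 60.9 to 86.2 for SGCF, and a processing batch and the arm cannot be told apart. Correlations between arrays of a group were 0.985 to 0.997. All 12 fibroblast markers lay above the floor in every group, but their levels moved. By day 10, 6 were called higher and 6 lower in the 6TCF arm, and 6 higher and 3 lower in the SGCF arm. Of all tested genes, 43.2% and 38.8% were called. In the 6TCF arm the group mean of Fbln2 went from 12.57 to 9.47 and that of Dcn from 10.24 to 13.63. In bulk RNA, fewer cells of a type and less RNA per cell cannot be told apart.

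Of the 31 Hox genes, 20 lay above the floor in all 6 groups and 5 more in at least 1 group. Those 25 were tested. Their genes ran from the anterior Hoxa2, Hoxa3, Hoxb2 and Hoxb3 through 11 of the 12 central members (numbers 4 to 8) to Hoxc13 and Hoxd13. The other 6, Hoxa13, Hoxb1, Hoxb7, Hoxb13, Hoxd1 and Hoxd12, lay between 4.51 and 5.34 on the 12 arrays with every group mean at or below the floor, and they were not tested. Their values stay in the medians over all 31 members and over whole clusters. Hoxa13, Hoxb13 and Hoxd12 belong to the distal-limb and tail end of the clusters, and Hoxb1 and Hoxd1 to the hindbrain end. Among the 5 genes above the floor in some groups only, Hoxa4 and Hoxd11 exceeded it at 6TCF day 0 alone, Hoxc5 at day 0 of both arms, and Hoxa3 in every group but 6TCF day 10. Hoxd13 exceeded it in 4 groups. A gene that passed through 1 group alone had to be lower elsewhere, so the falls of Hoxa4, Hoxd11 and Hoxc5 are partly set by the filter. For Hoxa4 and Hoxd11 the same holds for a lower SGCF level at day 0 and for a more negative change in the 6TCF arm than in the SGCF arm.

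Promoters are printed for 4 members that carry the contrasts described after them: Hoxa5 and Hoxa7, which differed most between the arms, and Hoxb4 and Hoxc4, copies with the same paralogue number that went opposite ways in the SGCF arm. Each runs from 250 bases before to 50 bases after the RefSeq transcription start, 5′ to 3′ on the gene's strand, in build GRCm38.p6. Hoxa5 is at chr6:52204538-52204837 (minus strand), Hoxa7 at chr6:52218524-52218823 (minus strand), Hoxb4 at chr11:96318017-96318316 (plus strand) and Hoxc4 at chr15:103034145-103034444 (plus strand). Capitals mark matches on either strand to the homeodomain core TAAT, the retinoic acid receptor element AGGTCA and the caudal-type motif TTTATN, and no match of one motif overlapped another in these 4 windows.
Hoxa5: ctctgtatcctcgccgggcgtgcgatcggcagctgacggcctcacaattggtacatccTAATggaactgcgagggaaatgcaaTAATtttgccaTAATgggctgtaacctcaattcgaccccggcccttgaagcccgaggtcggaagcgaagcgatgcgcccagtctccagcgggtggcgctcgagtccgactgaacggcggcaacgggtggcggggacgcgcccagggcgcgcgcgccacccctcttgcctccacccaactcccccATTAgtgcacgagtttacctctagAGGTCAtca
Hoxa7: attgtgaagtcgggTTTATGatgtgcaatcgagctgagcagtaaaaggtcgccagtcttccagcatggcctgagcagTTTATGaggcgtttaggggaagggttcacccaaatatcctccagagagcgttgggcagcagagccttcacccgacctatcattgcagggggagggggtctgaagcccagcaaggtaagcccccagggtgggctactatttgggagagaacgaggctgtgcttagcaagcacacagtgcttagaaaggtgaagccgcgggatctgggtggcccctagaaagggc
Hoxb4: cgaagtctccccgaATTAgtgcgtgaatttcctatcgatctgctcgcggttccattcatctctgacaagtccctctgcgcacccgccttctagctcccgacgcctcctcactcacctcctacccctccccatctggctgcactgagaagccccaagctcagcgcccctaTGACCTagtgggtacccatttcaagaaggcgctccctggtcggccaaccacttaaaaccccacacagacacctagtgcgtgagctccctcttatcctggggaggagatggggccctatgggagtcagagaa
Hoxc4: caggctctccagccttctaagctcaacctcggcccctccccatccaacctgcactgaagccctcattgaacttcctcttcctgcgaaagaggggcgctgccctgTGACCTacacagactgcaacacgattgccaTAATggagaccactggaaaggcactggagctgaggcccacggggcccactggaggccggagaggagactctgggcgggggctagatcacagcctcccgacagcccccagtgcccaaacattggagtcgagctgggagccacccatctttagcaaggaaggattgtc
TAAT was present 4 times in the Hoxa5 window, once in the Hoxb4 window and once in the Hoxc4 window, and 57.9% of the 32544 promoter windows in the table hold it. AGGTCA was present in the Hoxa5, Hoxb4 and Hoxc4 windows and in 16.2% of all windows. TTTATN was present 2 times in the Hoxa7 window and in 39.8% of all windows. The Hoxa5 window was 61.7% G and C with 29 CpG dinucleotides, against medians of 53% and 7 over all windows, while the Hoxa7 and Hoxc4 windows had 9 CpG each and the Hoxb4 window 14. Of the 31 members, 18 had a window in the table: 14 held TAAT, 5 held AGGTCA and 5 held TTTATN. A match describes letters and is not evidence of binding.

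In the 6TCF arm every called change by day 10 was a fall. Of the 25 tested members, 15 fell and none rose from day 0 to day 10, where 43.2% of all tested genes were called, 20% as lower and 23.2% as higher. Among the 10 members not called, Hoxa10 was at 0.39 (adjusted p = 0.14) and Hoxc13 at 0.31 (adjusted p = 0.136). The median change over all 31 members was -0.39, against -0.01 over all genes. Of the members tested, the falls covered 5 of 8 Hoxa genes, 2 of 6 Hoxb, 5 of 6 Hoxc and 3 of 5 Hoxd. By paralogue number they covered 2 of 4 tested anterior genes (numbers 1 to 3), 9 of 11 central genes (4 to 8) and 4 of 10 posterior genes (9 to 13). The falls of Hoxa4, Hoxc5 and Hoxd11, counted here, are partly set by the filter.

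**Figure D1:**
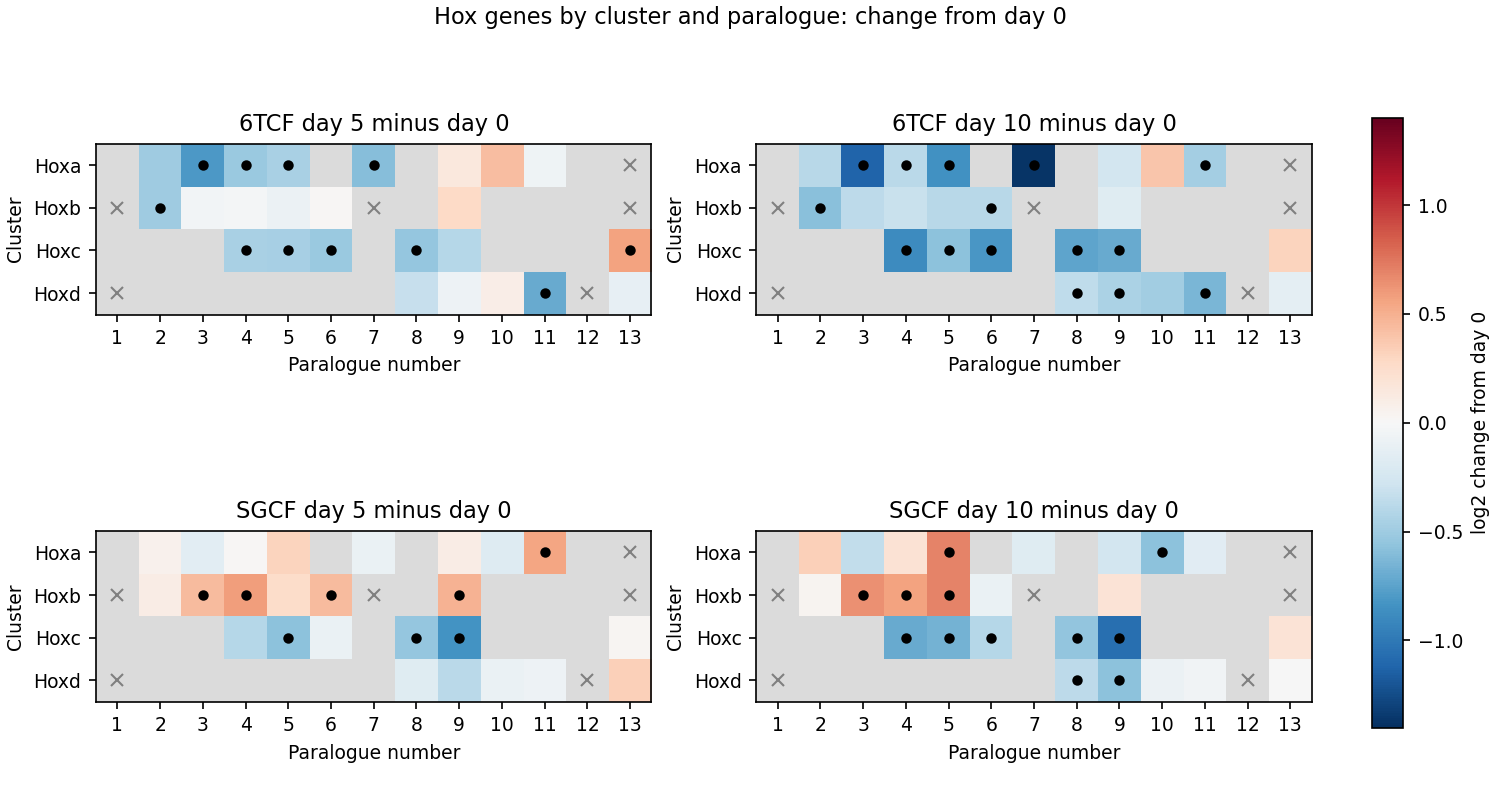
Log2 change from day 0 of each Hox gene, in 4 panels for day 5 and day 10 of each arm, with clusters in rows and paralogue numbers in columns. Colour gives the change, a black dot a call, a grey cross a member below the floor in every group, and plain grey a position with no member; the 6TCF panel at day 10 holds 15 dots, all on falls, and the SGCF panel at day 10 holds 8 falls and 4 rises.

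Hoxa7, a central gene that patterns the thoracic skeleton, changed most. Its level in the 6TCF arm was 7.92 and 7.96 at day 0, 7.41 and 7.29 at day 5, and 6.53 and 6.61 at day 10. The 3 days did not overlap, and each later pair lay below the earlier one. Its change by day 10 was -1.37 ± 0.15 (SE, n = 2 arrays per group; limma adjusted p = 2e-05), a 2.58-fold fall. From day 5 to day 10 alone it fell by 0.78 ± 0.15 (adjusted p = 0.00725). In the SGCF arm Hoxa7 was at 7.72 and 7.27 at day 0, 7.28 and 7.52 at day 5, and 7.31 and 7.35 at day 10. Those pairs overlapped, and the change by day 10 was -0.17 with a 95% interval of -0.50 to 0.16.

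Hoxa3, which patterns the thymus, parathyroid and other pharyngeal tissues, was dimmer. It read 6.27 and 6.43 at day 0 of 6TCF, 5.42 and 5.68 at day 5, and 5.08 and 5.38 at day 10. Both later pairs lay below day 0, and the day 10 mean was under the floor. Its change by day 10 was -1.12 ± 0.22 (adjusted p = 0.00149). In the SGCF arm it read 5.34 and 6.05 at day 0, 5.38 and 5.72 at day 5, and 5.21 and 5.51 at day 10. The wide pair at SGCF day 0 covered most of the later values, and no change was called. A second Hoxa3 probe set also fell in the 6TCF arm, by 0.71 ± 0.20 at day 10, and was called lower at SGCF day 5 at -0.62 ± 0.20 (adjusted p = 0.0465), where the probe set used gave -0.15.

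Hoxa5, needed for lung and upper thoracic development, read 8.83 and 8.69 at 6TCF day 0, 8.37 and 8.24 at day 5, and 7.87 and 7.95 at day 10. This was a stepwise fall with no overlap, of -0.85 ± 0.11 by day 10 (adjusted p = 9.28e-05). The Hoxc genes fell as a block: Hoxc4 by 0.88 ± 0.14, Hoxc6 by 0.82 ± 0.14, Hoxc8 by 0.74 ± 0.14, Hoxc9 by 0.71 ± 0.15 and Hoxc5 by 0.57 ± 0.16. Hoxc8, which specifies thoracic vertebrae and brachial motor neurons, went from 9.22 and 9.43 at day 0 to 8.72 and 8.45 at day 10, so it stayed far above the floor. Hoxc13, the hair-follicle member of that cluster, did not follow at 0.31 ± 0.16 (adjusted p = 0.136). The remaining falls were Hoxd11 at -0.64, Hoxb2 at -0.58, Hoxa11 at -0.48, Hoxd9 at -0.45, Hoxb6 at -0.39, Hoxa4 at -0.37 and Hoxd8 at -0.35.

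Leaving out 1 array at a time kept 8 to 10 of the 15 calls: 8 without replicate 1 of 6TCF day 0, 8 without replicate 1 of 6TCF day 10, and 10 without replicate 2 of either, with 1 new call without replicate 2 of day 10. Hoxa3, Hoxa5, Hoxa7, Hoxc4, Hoxc6, Hoxc8 and Hoxc9 passed in all 4 such fits. Hoxa11, Hoxb6 and Hoxd8 lost the call whichever of the 4 arrays was left out, with adjusted p up to 0.17, 0.162 and 0.135 over all alternatives. Hoxc5 and Hoxd9 lost it without replicate 1 of day 0 or of day 10, and Hoxb2 without replicate 2 of either. Hoxd11 lost it without either day 0 array or replicate 1 of day 10, and Hoxa4 without replicate 1 of day 0 or either day 10 array. With no normalization between arrays, Hoxd9 and Hoxa4 also lost the call. Hoxa4 kept it in 4 of 8 settings that used every array of the arm.

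Several other readings moved with these falls. The 3′ minus 5′ signal of the beta-actin control probe sets, which grows as RNA degrades, was 0.34 at 6TCF day 0, 0.82 at day 5 and 1.04 at day 10; in the SGCF arm it was 0.33, 0.45 and 0.46. For Gapdh it was 0.39, 0.50 and 0.49 at the 3 days of 6TCF, and -0.02, 0.10 and 0.11 at those of SGCF. The summed level of 8 mesothelial markers was 2366 to 2593 at 6TCF day 0, 6281 to 6339 at day 5 and 8022 to 8643 at day 10, with no marker at or below the floor, and 741 to 1192 on the SGCF arrays of any day. The summed level of 18 macrophage markers was 3725 to 3913 at 6TCF day 0, 1245 to 1390 at day 5 and 2155 to 2318 at day 10, with 1, 6 and 3 of them at or below the floor. That of 10 cartilage and bone markers was 1555 to 1589, 435 to 491 and 235 to 284 at the 3 days, with 4, 5 and 6 of them at or below the floor. That of 12 neural markers was 731 to 768, 1587 to 2153 and 832 to 1133, with 4, 3 and 3 at or below the floor. That of 11 skeletal muscle markers was 1630 to 1753, 586 to 688 and 789 to 2321, with 5, 4 and 2 at or below the floor. The 2 arrays of 6TCF day 10 thus lay far apart in the muscle sum. A sum can hide members that went the other way. By day 10 of 6TCF, 7 of 8 tested mesothelial markers were called higher and 1 lower. Macrophage markers were 2 higher and 11 lower of 17. Cartilage and bone markers were 0 higher and 3 lower of 6, and neural markers 4 higher and 2 lower of 9. Skeletal muscle markers were also 4 higher and 2 lower of 9. Of all tested genes, 43.2% were called. The part of these readings in the Hox changes was not tested.

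At day 5 of 6TCF, 10 members had fallen and 1 had risen, where 27.7% of all genes were called, 12.6% lower and 15.1% higher. The falls were led by Hoxa3 at -0.80, Hoxd11 at -0.70 and Hoxa7 at -0.59, and also took in Hoxa4, Hoxa5, Hoxb2, Hoxc4, Hoxc5, Hoxc6 and Hoxc8. For Hoxc6 the other probe sets gave -0.41 and -0.15, neither called. The rise was Hoxc13, by 0.56 ± 0.16 (adjusted p = 0.0205), from 5.69 and 6.03 to 6.30 and 6.53. These early calls were fragile, and the falls of Hoxa4, Hoxc5 and Hoxd11 are partly set by the filter. Of the 11, 1 was kept without replicate 1 of 6TCF day 0, 4 without its replicate 2, 4 without replicate 1 of day 5 and 3 without its replicate 2, each of the last 2 fits adding 1 new call, and no gene kept its call in more than 2 of the 4 fits. From day 5 to day 10, 2 members fell (15.8% of all genes called, 7.12% lower and 8.69% higher), Hoxa7 as given and Hoxa5 by 0.40 ± 0.11. Neither was kept without replicate 1 of day 5 or of day 10, both were kept without replicate 2 of day 5, with 3 new calls, and 1 without replicate 2 of day 10.

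In the SGCF arm the clusters divided. By day 10, 8 members fell and 4 rose, where 38.8% of all genes were called, 18.3% lower and 20.5% higher. The Hoxc genes fell in 5 of 6 cases, with a cluster median of -0.61, while 3 of the 6 tested Hoxb genes rose and none fell, with a median of 0.13 over all 9 Hoxb genes and 0.37 over the 6 tested. Hoxa split with Hoxa5 higher and Hoxa10 lower, and Hoxd8 and Hoxd9 fell. The Hoxc5 fall is partly set by the filter. The median over all 31 members was -0.09, against 0.02 over all genes.

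**Figure D2:**
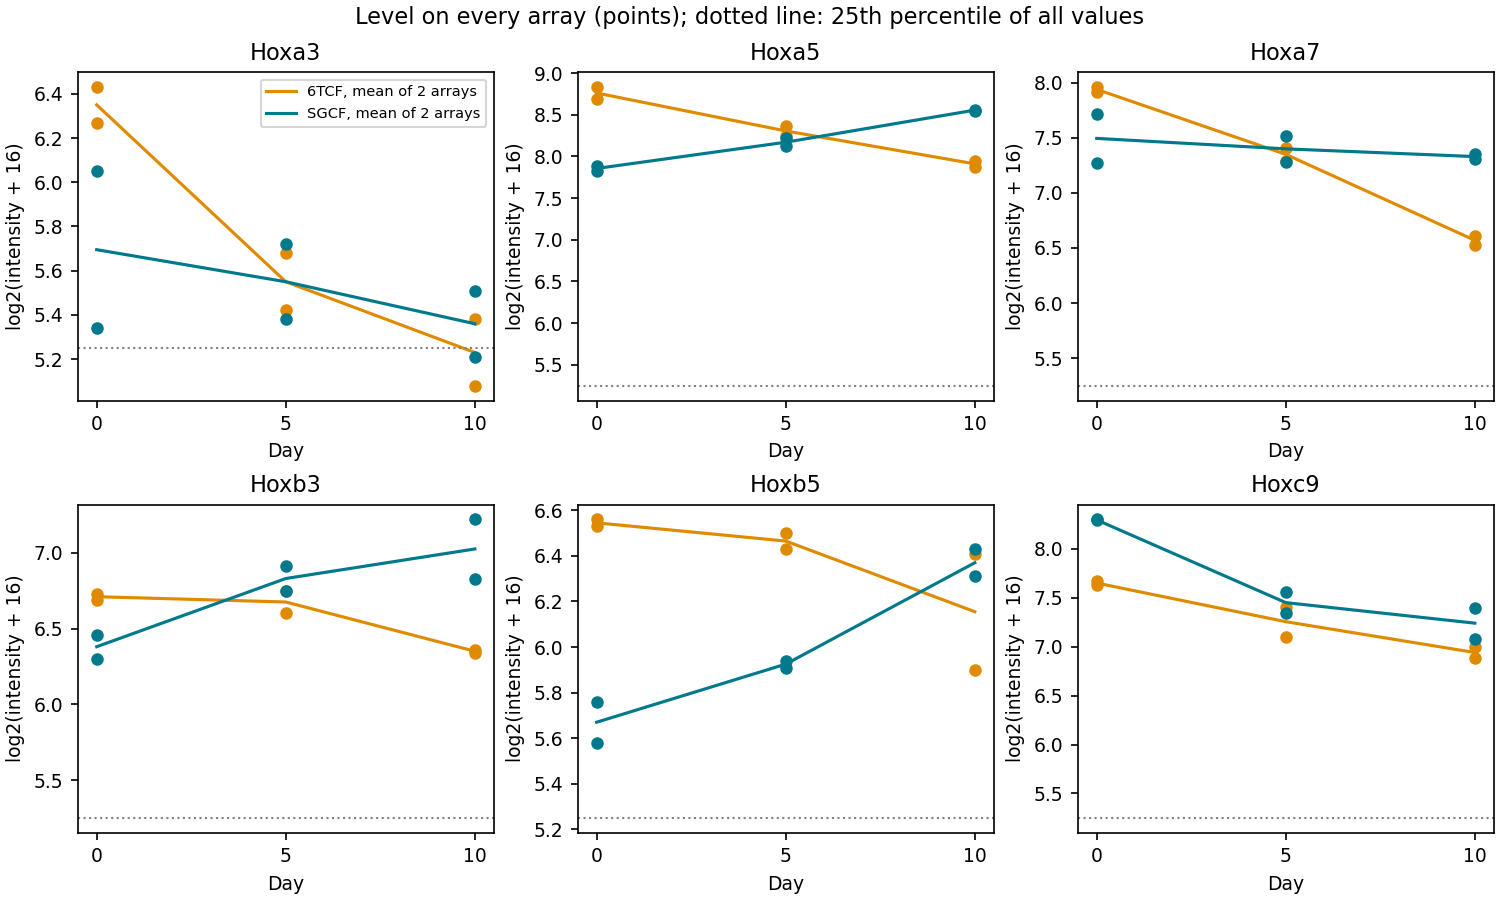
Level of 6 Hox genes on every array, as log2(intensity + 16) against day, each panel with its own vertical range; points are arrays, lines join means of 2 arrays, orange is 6TCF, blue-green is SGCF, and the dotted line is the floor of 5.25. Hoxa5 descended in the 6TCF arm from 8.83 and 8.69 and ascended in the SGCF arm from 7.89 and 7.82, so that the lines cross, whereas Hoxc9 descended in both.

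Hoxc9, which sets thoracic identity in motor neurons, changed most in the SGCF arm. It read 8.29 and 8.30 at day 0, 7.56 and 7.34 at day 5, and 7.08 and 7.40 at day 10. Days 5 and 10 overlapped, and both lay below day 0. Its change was -0.84 ± 0.15 at day 5 (adjusted p = 0.00109) and -1.05 ± 0.15 at day 10 (adjusted p = 0.000134), a 2.08-fold fall. In the 6TCF arm it read 7.67 and 7.63 at day 0, 7.10 and 7.41 at day 5, and 6.88 and 7 at day 10. Day 0 was the highest pair in both arms.

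Hoxa5 in the SGCF arm read 7.89 and 7.82 at day 0, 8.12 and 8.22 at day 5, and 8.55 and 8.56 at day 10. Each later pair lay above the earlier one, and the rise by day 10 was 0.70 ± 0.11 (adjusted p = 0.000461). Hoxb5, which acts in enteric neural crest, read 5.76 and 5.58, then 5.94 and 5.91, then 6.31 and 6.43. It was lowest at day 0 and highest at day 10, and rose by 0.70 ± 0.15 (adjusted p = 0.00377). Hoxb3 read 6.30 and 6.46, then 6.75 and 6.91, then 7.22 and 6.83. Both later pairs were above day 0, with a rise of 0.64 ± 0.14 by day 10 (adjusted p = 0.00372). Hoxb4, known for expanding blood stem cells when forced on, rose by 0.56 ± 0.15 (adjusted p = 0.0115), and its second, dimmer probe set by 1.02 ± 0.13.

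Besides Hoxc9, the falls by day 10 of SGCF were Hoxc4 at -0.71 ± 0.14, Hoxc5 at -0.66, Hoxd9 at -0.57, Hoxa10 at -0.57, Hoxc8 at -0.56, Hoxc6 at -0.40 and Hoxd8 at -0.36. For Hoxc6, the other probe sets gave -0.20 and 0.25 at this point, neither called. Leaving out 1 array kept 7 to 10 of the 12 calls, 7 without replicate 1 of SGCF day 10, and added up to 2 new ones. Hoxa5, Hoxb3, Hoxb5, Hoxc4 and Hoxc9 passed in all 4 fits. Hoxc5 and Hoxc8 lost the call without replicate 1 of SGCF day 10, and Hoxd9 without its replicate 2. Hoxd8 lost it without replicate 2 of day 10 or replicate 1 of day 0. Hoxa10 and Hoxb4 lost it without replicate 2 of day 0 or replicate 1 of day 10, and Hoxc6 whichever of the 4 arrays was left out. On the arm's 6 arrays alone, Hoxa10, Hoxc6 and Hoxd8 were not called. Hoxa10 also lost the call with a pseudocount of 1, and Hoxc6 with its probe sets averaged or with trend and robust fitting. The 4 rises depended on scaling: with no normalization between arrays the median of all genes moved to -0.23, the Hox calls became 0 higher and 9 lower, and Hoxa5, Hoxb3, Hoxb4 and Hoxb5 stood at 0.36, 0.39, 0.28 and 0.45, none called (adjusted p = 0.18, 0.169, 0.305 and 0.123).

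The macrophage sum in the SGCF arm was 8165 to 9138 at day 0, 947 to 1161 at day 5 and 873 to 961 at day 10, with 1, 5 and 8 of its 18 markers at or below the floor. The neural sum was 686 to 722, 2155 to 2468 and 665 to 754 at the 3 days, with 5, 3 and 3 of 12 markers at or below the floor, and the cartilage and bone sum was 714 to 1073, 357 to 412 and 419 to 464, with 4, 5 and 5 of 10. By day 10 of SGCF, 1 of 17 tested macrophage markers was called higher and 16 lower. Neural markers were 4 higher and 3 lower of 9, and cartilage and bone markers 0 higher and 2 lower of 6. Of all tested genes, 38.8% were called. The part of these markers in the Hox changes was not tested.

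At day 5 of SGCF, 5 members had risen and 3 had fallen, where 25.5% of all genes were called, 12.8% higher and 12.7% lower. The rises were Hoxb4 at 0.59, Hoxa11 at 0.56, Hoxb9 at 0.49, Hoxb3 at 0.45 and Hoxb6 at 0.44, which is 4 of the 6 tested Hoxb genes. The falls were Hoxc9, Hoxc5 at -0.57, partly set by the filter, and Hoxc8 at -0.54. Of the 8 calls, 3 were kept without replicate 1 of SGCF day 0, 5 without its replicate 2, 3 without replicate 1 of day 5 and 1 without its replicate 2, and Hoxc9 alone passed in every such fit. With no normalization between arrays the calls were 0 higher and 6 lower. Of the 5 rises, Hoxb3 and Hoxb4 were called again at day 10. Hoxb9 was then at 0.19 (adjusted p = 0.335). From day 5 to day 10 Hoxa11, which builds the forearm and shank, fell by 0.71 ± 0.18 (adjusted p = 0.0134), from 7.60 and 7.57 to 6.82 and 6.92, and Hoxb6 fell by 0.53 ± 0.13 (adjusted p = 0.0108). Hoxa5 rose further, by 0.38 ± 0.11 (adjusted p = 0.0317). These were the 3 calls of that step, where 21.7% of all genes were called, 11.7% higher and 9.97% lower, and 0 of them were kept without replicate 1 of day 5 or of day 10 and 1 without replicate 2 of either.

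Set side by side, the arms shared the Hoxc falls. Hoxc4, Hoxc5, Hoxc6, Hoxc8, Hoxc9, Hoxd8 and Hoxd9 fell in both by day 10, 7 of the 25 tested members: these 7 are 46.7% of the 15 falls in the 6TCF arm and 87.5% of the 8 in the SGCF arm, and 9.13% of all tested genes were called lower in both arms. The 2 arms have no array in common. The Hoxc5 falls, counted in these shares, are partly set by the filter, as it passed through day 0 of each arm alone. No member rose in both, where 11.5% of all genes did. Hoxa5 alone fell in the 6TCF arm and rose in the SGCF arm, where 1.02% of all genes did. At day 5, Hoxc5 and Hoxc8 fell in both, where 5.98% of all genes did. These 2 genes were called in all 4 changes from day 0, although the Hoxc5 values after day 0 lay under the floor.

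**Figure D3:**
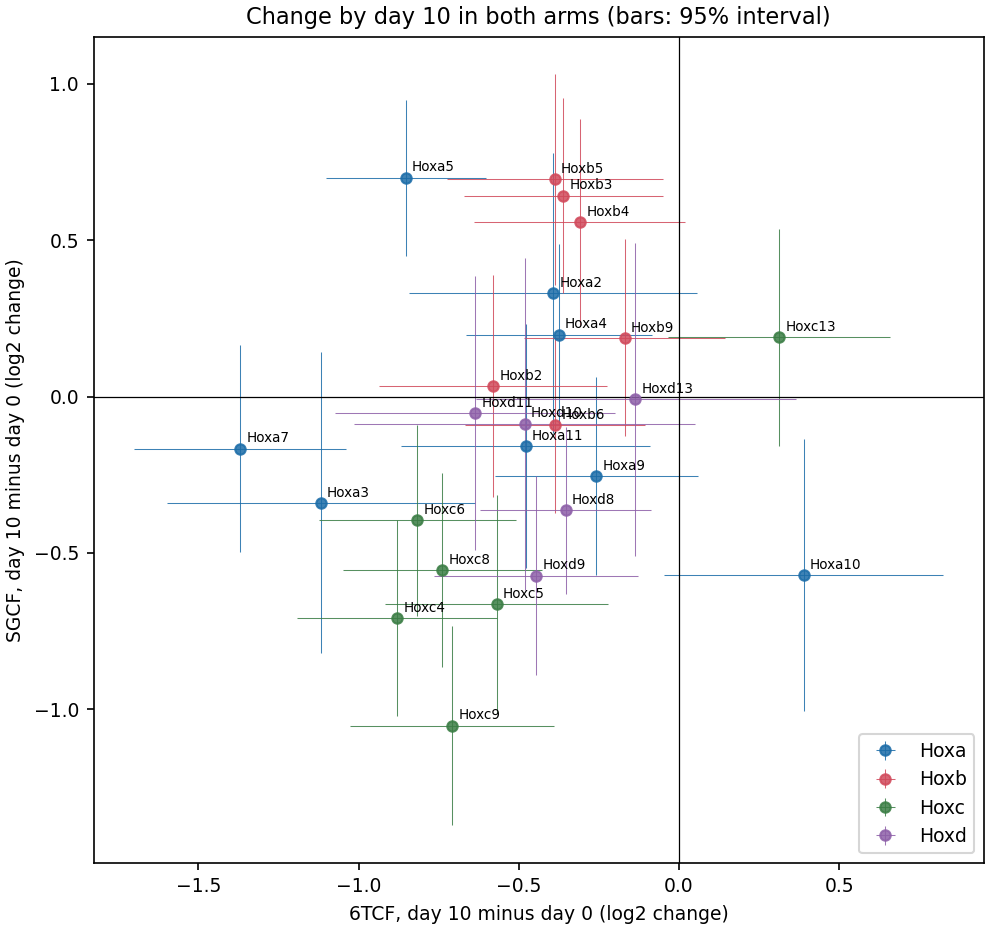
Change by day 10 in the SGCF arm against that in the 6TCF arm for the 25 tested Hox genes, on the log2 scale, with 95% intervals as bars and clusters as colours. Hoxc4, Hoxc5, Hoxc6, Hoxc8 and Hoxc9 lie in the lower left, Hoxa5, Hoxb3, Hoxb4 and Hoxb5 in the upper left, and Hoxa7 and Hoxa3 far left near or just below 0 on the vertical axis.

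Genes with the same paralogue number did not always move together. Of 10 numbers with at least 2 tested copies, 2 held called changes in both directions by day 10 of SGCF. At number 4, Hoxb4 rose and Hoxc4 fell, with Hoxa4 at 0.20 and not called. At number 5, Hoxa5 and Hoxb5 rose and Hoxc5 fell. At number 8 both copies fell, and at number 9 Hoxc9 and Hoxd9 fell while Hoxa9 was at -0.26 and Hoxb9 at 0.19, neither called. In the 6TCF arm no number held both directions by day 10, and all tested copies fell at numbers 6, 8 and 11.

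The arms already differed at day 0, where 5 members were called, and 17.4% of all genes, 8.59% as higher in SGCF and 8.81% as lower. SGCF was lower for Hoxa5 by 0.91 ± 0.11 (adjusted p = 0.000565), Hoxb5 by 0.87 ± 0.15, Hoxb6 by 0.72 ± 0.13 and Hoxa4 by 0.60 ± 0.13, and higher for Hoxc9 by 0.64 ± 0.15 (adjusted p = 0.0133). The second Hoxb4 probe set was also lower, by 0.75 ± 0.13, where the one used was at -0.33 and not called. The Hoxa4 difference is partly set by the filter. The number of Hox genes called was 3 without replicate 1 of 6TCF day 0, 8 without replicate 1 of SGCF day 0, and 24, all lower in SGCF, with no normalization between arrays, which moved the median of all genes to -0.61. In the same comparison 16 of 17 tested macrophage markers were called higher in SGCF (list median 1.05) and 6 of 8 mesothelial markers lower (list median -1.50). Their part in the Hox differences was not tested. Hoxa4 lost the call without replicate 1 of 6TCF day 0, and also with a pseudocount of 64. Hoxc9 lost it without either 6TCF array or replicate 2 of SGCF, and without normalization it read -0.11 (adjusted p = 0.677). These differences set the starting points of the changes: Hoxb5 began at 6.56 and 6.53 in the 6TCF arm and at 5.76 and 5.58 in the SGCF arm, and by day 10 read 5.90 and 6.41 in the first and 6.31 and 6.43 in the second.

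The difference between arms in the change by day 10 was itself tested. It was called for 7 members, 6 with the SGCF change higher and 1 with it lower, where 25.7% of all genes were called, 12.3% higher and 13.4% lower. By cluster the medians were 0.57 for Hoxa, 0.36 for Hoxb, 0.04 for Hoxc and 0.01 for Hoxd, and by paralogue class 0.67 for anterior, 0.36 for central and 0 for posterior genes, against 0.01 over all genes. Over the 6 tested Hoxb genes alone the median was 0.74. This difference subtracts the day 0 arrays of each arm, so a gap between arms at day 0 enters it with the opposite sign. The change by day 10 also differed for 16 of 17 tested macrophage markers and 6 of 8 mesothelial markers, all with the SGCF change lower (list medians -1.74 and -1.70), and their part in the Hox differences was not tested. On the probe sets used, none of the 6 Hoxc genes was called, and for all 6 the 95% interval of the difference lay within 2-fold. Hoxc6 has further probe sets that reach past it. One was called at 0.64 ± 0.21 (adjusted p = 0.0493), with an interval of 0.18 to 1.10. Another gave 0.77, not called, with an interval of -0.03 to 1.57.

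**Figure D4:**
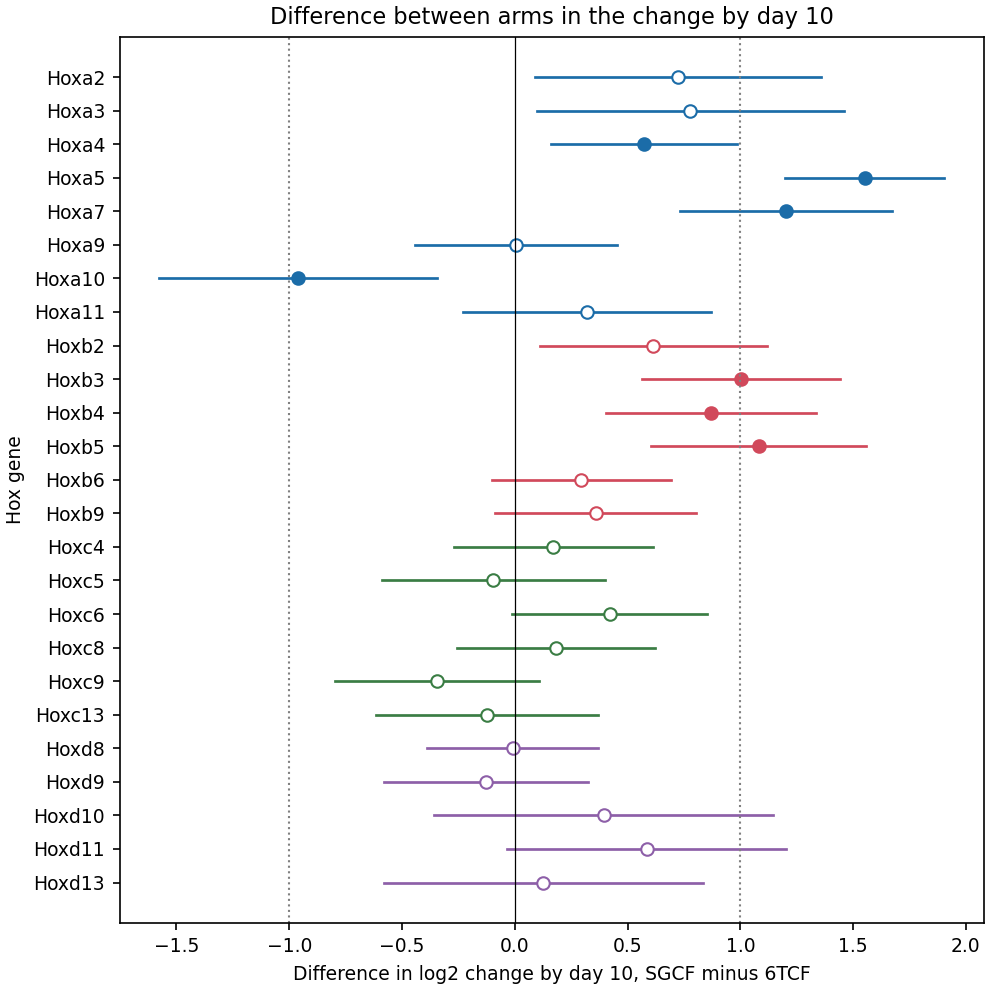
Difference between arms in the log2 change by day 10 (SGCF minus 6TCF) for the 25 tested Hox genes, with 95% intervals, filled points for called genes and dotted lines at 2-fold; colours are clusters as in the plot of both arms. Hoxa5 and Hoxa7 lie farthest to the right at 1.55 and 1.20, Hoxa10 farthest to the left at -0.96, and the Hoxc and Hoxd points are all open.

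Hoxa5 differed by 1.55 ± 0.16 (adjusted p = 7.53e-05), Hoxa7 by 1.20 ± 0.21 (0.00239), Hoxb5 by 1.08 ± 0.22 (0.00467), Hoxb3 by 1.00 ± 0.20 (0.00458), Hoxb4 by 0.87 ± 0.21 (0.013) and Hoxa4 by 0.57 ± 0.19 (0.0433), the last partly set by the filter. Hoxb3 in the 6TCF arm read 6.73 and 6.69 at day 0, 6.6 and 6.75 at day 5, and 6.36 and 6.34 at day 10, a change of -0.36 that was not called, so its difference rests mostly on the SGCF rise. Hoxa7 differed through the 6TCF fall. Hoxb5 in the 6TCF arm read 6.43 and 6.5 at day 5, and its change by day 10, -0.39, was not called. Hoxa10, a posterior gene needed in the uterus and lumbar skeleton, went the other way at -0.96 ± 0.28 (adjusted p = 0.0281), with 0.39 in the 6TCF arm, not called, and -0.57 in the SGCF arm. The first 5 passed whichever of the 8 arrays was left out. Hoxa10 lost the call without either array of 6TCF day 0 or day 10, replicate 2 of SGCF day 0 or replicate 1 of SGCF day 10. Of the fits with an array left out, Hoxa4 kept the call only in that without replicate 2 of 6TCF day 0. It kept the call in 3 of 7 settings that used all arrays. With no normalization between arrays, which moved the median of all genes to -0.22, Hoxb3 (adjusted p = 0.0639), Hoxb4 (0.111) and Hoxb5 (0.0519) were not called. At day 5 the difference was called for Hoxa5 alone, at 0.77 ± 0.16 (adjusted p = 0.0104), where 8.98% of all genes were called, 2.91% higher and 6.06% lower. That call was lost without replicate 1 of 6TCF day 0, and the count was then 0, but 4 without replicate 1 of 6TCF day 5, 3 without replicate 1 of SGCF day 0 and 2 without its replicate 2.

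To say which members stayed fixed, the 95% intervals were used rather than missing calls. In all 4 changes from day 0, 13 of the 25 tested members had intervals within 2-fold: Hoxa2, Hoxa4, Hoxa9, Hoxa11, Hoxb2, Hoxb3, Hoxb4, Hoxb6, Hoxb9, Hoxc13, Hoxd8, Hoxd9 and Hoxd13. Of these, 10 were still called at some point, with shifts under 2-fold, and 3 were never called: Hoxa2, which patterns the second pharyngeal arch, Hoxa9 and the digit gene Hoxd13. Hoxa2 was nonetheless at -0.50 at day 5 of 6TCF, with an interval of -0.95 to -0.05 that comes close to 2-fold. Its difference between arms in the change by day 10 was 0.72, not called, with an interval of 0.09 to 1.36 that reaches past 2-fold. Hoxa9 lay between 7.82 and 8.66 on the 12 arrays, with no change from day 0 beyond 0.26 and no interval past 0.58. Its second, dimmer probe set was at -0.51 by day 10 of 6TCF, with an interval of -1.07 to 0.04 that reaches past 2-fold. Hoxb4 was within 2-fold on the probe set used only. Its second, dimmer probe set rose by 1.02 ± 0.13 by day 10 of SGCF and was called, with an interval of 0.74 to 1.29. Hoxa4, above the floor at 6TCF day 0 alone, and Hoxd13 lay near the floor, where little change can be seen, and with a pseudocount of 1 the Hoxa4 change at day 5 of 6TCF was -0.90 against -0.52. The step from day 5 to day 10 is not part of these 4 changes. In that step of SGCF, Hoxa11 fell by 0.71, with an interval of -1.104 to -0.325 that reaches past 2-fold. At day 10, 16 tested members were within 2-fold of day 0 in the 6TCF arm and 20 in the SGCF arm. Those not within it by day 10 of 6TCF were Hoxa3, Hoxa5, Hoxa7, Hoxc4, Hoxc6, Hoxc8, Hoxc9, Hoxd10 and Hoxd11. In the SGCF arm they were Hoxa10, Hoxb5, Hoxc4, Hoxc5 and Hoxc9. Hoxd10 was never called and yet had an interval of -1.01 to 0.05 by day 10 of 6TCF, so it is neither shown to have changed nor to have stayed.

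Genes around the Hox system were read from lists, against 43.2% of all tested genes called by day 10 of 6TCF, 38.8% by day 10 of SGCF and 25.7% for the difference in change. Of 8 tested Hox cofactors, 3 rose and none fell by day 10 of 6TCF, and 4 rose and 1 fell by day 10 of SGCF. Meis1 rose by 0.99 ± 0.13 and 1.04 ± 0.13 in those arms, Meis2 by 0.57 ± 0.15 and 1.34 ± 0.15, and Pbx3 by 0.53 ± 0.13 and 0.77 ± 0.13. Pbx2 also rose in the SGCF arm, by 0.42, and Pknox2 fell by 0.48. The 3 of 8 called in the 6TCF arm are a smaller share than among all genes. The list's median was -0.01 by day 10 of 6TCF and 0.39 by day 10 of SGCF, against -0.01 and 0.02 over all genes. Of 24 tested Polycomb genes, 3 rose and 4 fell by day 10 of 6TCF (Jarid2, Cbx6 and Mtf2 against Phc2, Suz12, Scmh1 and Kdm2b), while 4 rose and 3 fell by day 10 of SGCF (Jarid2, Cbx6, Ezh1 and Rnf2 against Ezh2, Suz12 and Rbbp7). Both counts, 7 of 24, are a smaller share than among all genes. The list medians were -0.04 and -0.03. Jarid2, an accessory subunit that guides the complex to chromatin, rose by 2.91 ± 0.12 and 2.05 ± 0.12 at days 5 and 10 of 6TCF and by 1.67 ± 0.12 and 1.83 ± 0.12 in the SGCF arm. Ezh2, the histone methyltransferase of the complex, fell by 1.45 ± 0.15 by day 10 of SGCF, and the difference between arms was -1.13 ± 0.22 (adjusted p = 0.00369). Cbx6, a chromatin reader, rose by 0.84 ± 0.21 in the 6TCF arm and 1.01 ± 0.21 in the SGCF arm.

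Of 8 tested Trithorax and demethylase genes, Cxxc1 rose by 0.51 and Kmt2a, the MLL methyltransferase, fell by 0.41 by day 10 of 6TCF. By day 10 of SGCF none rose and 4 fell: Psip1, a chromatin tether of the MLL complex, by 1.22 ± 0.16, and Dpy30, Wdr5 and Ash2l, core subunits of such complexes, by 0.55, 0.43 and 0.41. The list medians were -0.11 and -0.23. Among 16 tested axial patterning inputs, 9 rose and 2 fell by day 10 of 6TCF, with a list median of 0.48, and 6 rose and 1 fell in the SGCF arm, with a list median of 0.24. Rarb, a retinoic acid receptor that is itself a retinoid target, rose by 2.19 ± 0.12 and 2.79 ± 0.12, and Crabp1, a retinoic acid binding protein, by 1.66 ± 0.14 and 0.90 ± 0.14. The falls were Rarg at -0.64 and Rara at -0.58 in the 6TCF arm, and Egr2, a hindbrain factor, at -0.92 in the SGCF arm. Cyp26a1, the enzyme that degrades retinoic acid, rose by 2.54 ± 0.13 in the 6TCF arm and differed by -2.46 ± 0.19 between arms. At day 0 Rarb was lower in the SGCF arm by 1.67 ± 0.12 and Aldh1a1, a retinaldehyde dehydrogenase, by 2.08 ± 0.14.

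Of 44 other tested transcription factors that mark body position, 8 rose and 16 fell by day 10 of 6TCF, and 12 rose and 11 fell by day 10 of SGCF. In the 6TCF arm Foxd1 fell by 1.75 ± 0.22, and Gata6 rose by 1.73 ± 0.13 and Irx5 by 1.52 ± 0.13. In the SGCF arm Nr2f1 rose by 2.63 ± 0.16, Lhx9 fell by 2.02 ± 0.18 and Gata6 rose by 1.82 ± 0.13. The change by day 10 differed between arms for 13 of them, a share near that of all genes, with the SGCF change higher for 12 (12.3% of all genes), among them Tbx5, the forelimb factor, at 1.58 ± 0.19, and lower for Lhx9 at -2.44 ± 0.26. Their list median for that difference was 0.17, against 0.30 for the Hox genes and 0.01 over all genes.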

How the data were processed

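The arrays were 12 Affymetrix Mouse Genome 430A 2.0 arrays. The submitters' processing notes name RMA, MAS5 and limma without roles or versions, and the deposited table holds linear intensities per probe set, the authors' values, whose scaling no label or header states. Of 22690 probe sets, 20380 carry 1 gene symbol in GEO's platform annotation, 691 several and 1555 none. All 31 Hox symbols matched the current gene table (GRCm38.p6). Intensities were turned to log2(intensity + 16) and quantile normalized over all probe sets, and 64 control probe sets were then left out. A gene was its single-symbol probe set with the highest mean. Genes whose highest group mean exceeded the 25th percentile were tested, with limma 3.58.1 in R 4.3.3, as 6 group means over 12 arrays with 6 residual and 5.75 prior degrees of freedom, in 9 comparisons. The number of arrays limits the precision. The fit was tested on simulated data. A gene held within 2-fold where its 95% interval lay inside -1 to 1.

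Array values are given for the members called at 2-fold or more in any comparison. From each gene list, up to 3 genes with the largest called change in a comparison were named, and also, chosen after their values were seen, the genes behind counts of 5 or fewer. Members and lists were chosen with earlier results of these data known. Alternatives were median scaling, no normalization, pseudocounts of 1 and 64, no filter, a filter at the 50th percentile, the mean of a gene's probe sets, limma with trend and robust fitting, the 6 arrays of an arm alone, the replicate number as a block, and each array left out. Probe sets with several symbols and the antisense gene Hoxa11os are outside the membership rule.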

Additional observations from a re-analysis of the deposited data

Results flagged for a closer look

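The change from day 0 differed between the arms for several Hox genes by a test of that difference in limma (SGCF minus 6TCF, log2 scale, 2 arrays per group). By day 10 it was 1.55 for Hoxa5, 1.20 for Hoxa7, 1.08 for Hoxb5, 1.00 for Hoxb3, 0.87 for Hoxb4, 0.57 for Hoxa4 and -0.96 for Hoxa10. Hoxa4 passed the filter on dim genes through 6TCF day 0 alone, so the direction of its difference is partly set by the filter. By day 5 it was 0.77 for Hoxa5. On the day 0 arrays, SGCF minus 6TCF was -0.91 for Hoxa5, -0.45 for Hoxa7, -0.33 for Hoxb3 and -0.33 for Hoxb4. It was -0.87 for Hoxb5, -0.60 for Hoxa4 and 0.49 for Hoxa10. Of these, Hoxa5, Hoxb5 and Hoxa4 were called at day 0. The difference in change subtracts these same day 0 arrays, so a gap at day 0 that is gone later gives a difference of the opposite sign. The arm and any processing batch cannot be told apart. Groups of 2 arrays are too small for a test of single outlying arrays.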

How the results depend on the processing

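The 64 called pairs of a Hox gene and a comparison were read again under each alternative, on the same arrays. Of these 887 readings, which are not independent, 705 gave the same call and 181 the same direction without the call. The opposite direction was seen in 1: Hoxc9 at day 0, -0.11 with no normalization against 0.64. The number of called Hox genes moved by over 1.5 times in these cases. With the filter at the 50th percentile it was 7 at 6TCF day 5, 9 at 6TCF day 10 and 6 from 6TCF day 5 to day 10, and 7 at SGCF day 10, with 13 members left to test. With no normalization it was 1 from 6TCF day 5 to day 10, 0 from SGCF day 5 to day 10, 24 at day 0, all lower in SGCF, while the median of all genes moved to -0.61, then 0 and 3 for the differences in change by days 5 and 10; the 6TCF count at day 5 was 0 higher and 13 lower. From 6TCF day 5 to day 10 it was 4 with a pseudocount of 64, 5 with probe sets averaged and 7 on the arm's 6 arrays, and on the SGCF arm's 6 arrays it was 4 at day 5 and 1 from day 5 to day 10. The cause was not tested. With each array left out in turn, the counts were 1 to 5 and 8 to 11 for 6TCF days 5 and 10, 0 to 5 between them, 1 to 6 and 8 to 12 for SGCF, 0 to 1 between them, 3 to 8 at day 0, and 0 to 4 and 5 to 7 for the differences in change.

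The replicate numbers did not pair the arrays: over 15 pairs of groups the correlation of deviations was -0.28 to 0.11, over 0.1 in 2. With the replicate block the counts were 10, 13 and 2 in the 6TCF arm, 7, 12 and 3 in the SGCF arm, 6 at day 0, and 1 and 7 for the differences in change. Dim genes such as Hoxa4, Hoxc5, Hoxd11 and Hoxd13 are limited by signal over background.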

Other observations

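Hox probe sets outside the membership rule gave further values, with no test. A probe set shared by Hoxb8 and Hoxb7 read 7.81 and 7.78 at 6TCF day 0, 6.83 and 7.64 at day 5 and 7.16 and 7.44 at day 10, a change of -0.49 by day 10, and 7.41 and 7.19, then 7.29 and 7.67, then 7.34 and 7.33 in the SGCF arm, a change of 0.04. All 6TCF values after day 0 lay below day 0. The SGCF pairs overlapped, although the day 5 value of 7.67 lay above both day 0 values. The probe set of Hoxb7 alone read at most 5.34 on any array. The 2 probe sets shared by Hoxd4 and Hoxd3 changed by 0.10 and -0.01 by day 10 of 6TCF and by 0.04 and 0.13 by day 10 of SGCF.

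Hoxa11os, an RNA read from the strand opposite Hoxa11, read 6.30 and 6.72 at SGCF day 0, 6.81 and 7.14 at day 5 and 6.17 and 5.98 at day 10, so day 5 was highest and day 10 lowest. The change from day 5 to day 10 was -0.90, beside -0.71 for Hoxa11. In the 6TCF arm it changed by 0.07 at day 5 and -0.18 at day 10.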
